A study of Mus musculus with 6 samples.

Results

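The mitochondrial ribosomal proteins were read as every locus of the deposited transcript table that holds a row whose gene name begins with Mrpl (large subunit) or Mrps (small subunit). The rule found 58 loci, 35 Mrpl and 23 Mrps, of 7171 loci in all. They carry 90 transcripts with a member name, and 111 transcripts once unnamed ones and transcripts of other genes at the same loci are included, of 15113. In the GENCODE M21 annotation 78 protein-coding mouse genes have such a name, 49 Mrpl and 29 Mrps. The genes beyond the 58 were not analysed here.

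The cells sequenced were C17.2, an established mouse line of multipotent neural stem cells derived from CD1 x C57BL/6 animals. The groups were heme-treated cells, cells under neural induction (Knockout DMEM with GlutaMAX, N2 supplement and the neurotrophin BDNF at 10 ng/ml), and control cells in growth medium, which is DMEM/F12 with fetal bovine serum. For heme, the sources used here give no dose, duration or medium. The labels give 2 replicates a group. The heme replicate 2 column equals the replicate 1 column times a factor of 1.25 to 1.50 in each of 13963 transcripts, with no transcript at 0 in only one of them, so heme was counted as 1 sample. The 5 libraries used are heme replicate 1 (n = 1), neural induction replicates 1 and 2 (n = 2), and control replicates 1 and 2 (n = 2). Whether the replicates of a group came from separate cultures is not spelled out, so p-values measure the spread between these samples.

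Mitochondria keep their own ribosomes, which translate the few mRNAs of mitochondrial DNA into core subunits of the respiratory chain and ATP synthase. The ribosomal RNAs come from mitochondrial DNA, whereas all protein subunits are encoded in the nucleus, made in the cytosol and imported. A part of the proteins descends from the bacterial ribosome, and another part was added in the mitochondrial lineage. Of the 35 Mrpl loci, 23 encode proteins with a bacterial counterpart and 12 are specific to mitochondria. Of the 23 Mrps loci, 15 have a bacterial counterpart and 5 are specific to mitochondria. The remaining 3 have a small-subunit symbol but are not small-subunit proteins: structural work places MRPS18A and MRPS30 in the large subunit of the mammalian mitoribosome, and MRPS36 in the 2-oxoglutarate dehydrogenase complex.

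Levels are in FPKM (fragments scaled to transcript length and library size), added up over all transcripts that the table lists at a locus. GENCODE M21 holds 264 transcripts of the members, and all transcripts of the gene are listed at only 5 member loci. A locus sum can therefore miss part of a gene's RNA. Mapped sequence came to 4.14 to 4.56 gigabases a library, and the summed coverage behind a member in a library ran from 13.4 to 812 per base, with a median of 108. The FPKM of all listed transcripts together lay between 398224 and 411657 per library. The cell line's neural progenitor markers Nes, Sox2 and Vim were listed (3 of 7 on the list, summing to 929 FPKM in the heme library, 926 and 920 under induction, and 949 and 809 in the controls). Vim, an intermediate filament gene, makes up most of that sum, at 782 FPKM with heme, 783 and 794 under induction, and 798 and 663 in the controls. Nes, the progenitor filament gene nestin, was at 128 FPKM with heme, 123 and 108 under induction, and 132 and 132 in the controls. The table also lists 5 of 7 mesenchymal markers, led by Col1a1 and Col3a1. The mesenchymal sum was 3589 FPKM with heme, 3428 and 3650 under induction, and 3629 and 2761 in the controls. Of the neuron list, Tubb3 and Map2 were listed (2 of 8, summing to 32.6 FPKM with heme, 23.2 and 29.0 under induction, and 23.3 and 21.8 in the controls). Genes of the astrocyte, erythroid and microglia lists were not analysed here. The part of cell makeup in the differences below was not tested, and in such bulk samples fewer cells of a type cannot be told apart from less RNA per cell.

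Large-subunit loci were on the whole listed at higher levels than small-subunit loci. The mean over the 5 libraries ran from 4.35 to 175 FPKM among Mrpl loci, with a median of 27.6, and from 4.60 to 64.1 FPKM among Mrps loci, with a median of 19.5. The median of all members was 25.8 FPKM, against 18.1 FPKM over the 7039 loci of the table that passed the filter of at least 1 FPKM in at least 2 libraries. All 58 members passed it.

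Mrpl42, which encodes a mitochondria-specific protein of the large subunit, stood far above the rest at 176 FPKM in the heme library, 178 and 174 under induction, and 181 and 166 in the controls. Almost all of this level lies on an unnamed transcript, MSTRG.2344.1, on the coordinates of the annotated one (chromosome 10, 95480806 to 95501927, minus strand), with 173 FPKM in the heme library, 174 and 168 under induction, and 179 and 163 in the controls. The next Mrpl loci by mean were Mrpl13 at 73.9 FPKM, Mrpl54 at 61.3, Mrpl30 at 59.0 and Mrpl12 at 59.0. Mrpl12, the counterpart of the bacterial stalk protein L7/L12, also binds the mitochondrial RNA polymerase in mammals. Among Mrps loci the order by mean was Mrps6 at 64.1 FPKM, Mrps15 at 52.8, Mrps21 at 45.7, Mrps18b at 33.5 and Mrps18a at 30.4. The lowest Mrpl loci were Mrpl55 at 4.35 FPKM, Mrpl48 at 5.61, Mrpl1 at 7.54, Mrpl47 at 9.30 and Mrpl24 at 10.2. The lowest Mrps loci were Mrps14 at 4.60, Mrps18c at 6.30, Mrps9 at 9.62, Mrps26 at 12.7 and Mrps17 at 13.3. The libraries of Mrpl42 and Mrpl13, of Mrpl13 and Mrpl54, of Mrps6 and Mrps15, and of Mrps9 and Mrps18c do not overlap, whereas those of the other neighbours in these orders do.

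Mrps18a, Mrps18b and Mrps18c are 3 related genes of the S18 family, whose products sit at different places of the mitoribosome. MRPS18C takes the place of bacterial S18, and MRPS18B, which sits elsewhere in the small subunit, is therefore counted here with the mitochondria-specific proteins. Mrps18b was listed at 32.4 FPKM in the heme library, 33.3 and 33.2 under induction, and 31.2 and 37.4 in the controls. Mrps18c was listed at 6.05 FPKM with heme, 5.44 and 5.76 under induction, and 5.64 and 8.62 in the controls. Mrps18c thus stood below both paralogs in every library. Mrps18a is described with the induction comparison below. Mrps30 was listed at 29.0 FPKM with heme, 31.6 and 30.4 under induction, and 28.7 and 31.1 in the controls. Mrpl45, whose product lines the exit of the peptide tunnel at the inner membrane, was at 10.7 FPKM with heme, 12.2 and 12.4 under induction, and 11.1 and 11.9 in the controls.

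**Figure D1:**
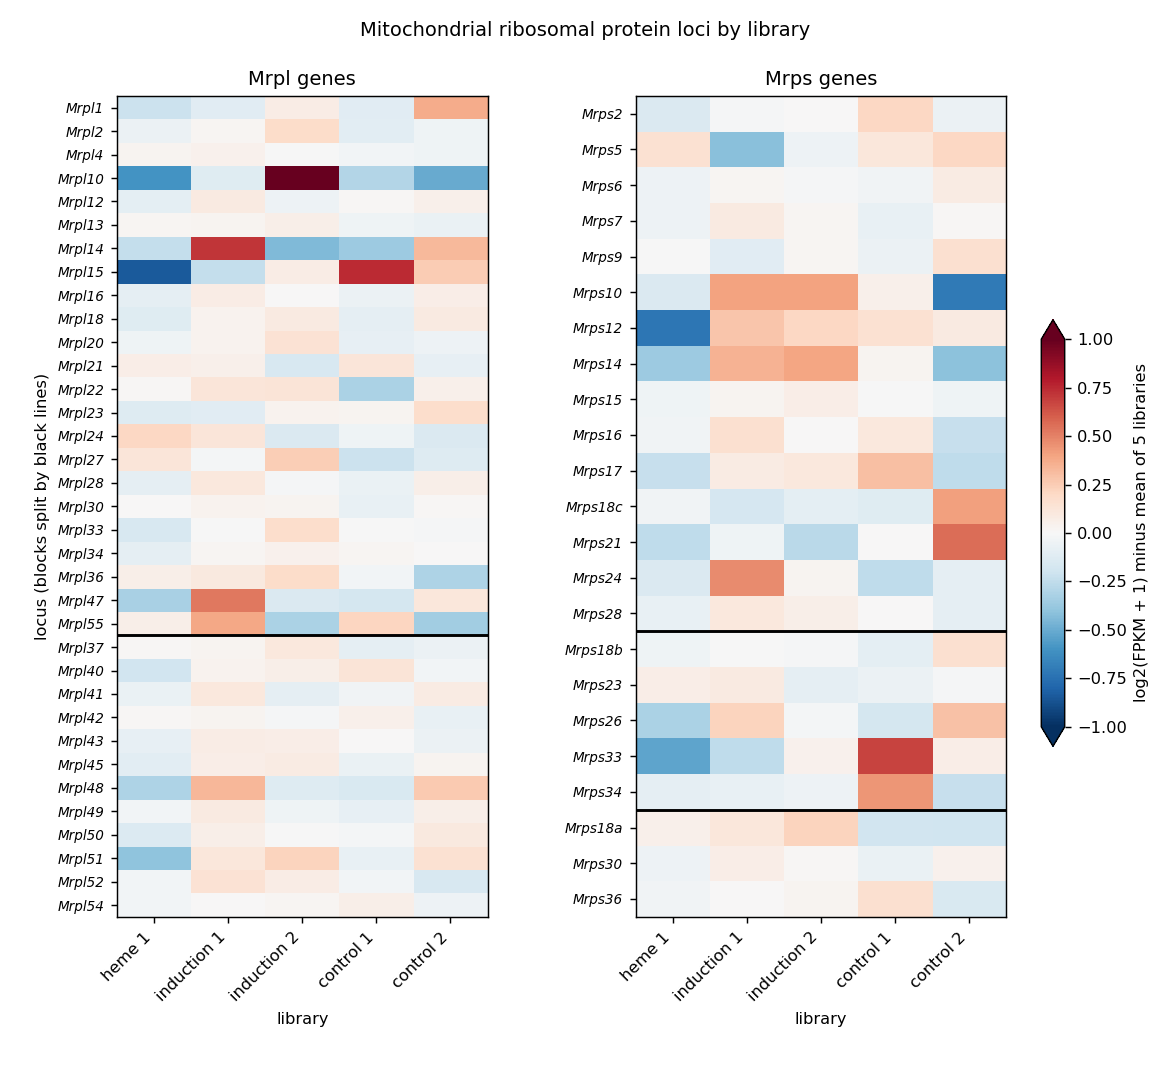
Each row is 1 of the 58 loci and each column 1 of the 5 libraries (heme, induction, control). Colour gives log2(FPKM + 1) minus the locus mean over the libraries. Black lines split the blocks: proteins with a bacterial counterpart, then mitochondria-specific ones, then (Mrps only) the 3 loci outside the small subunit. Most rows are pale. Mrpl10 stands out in induction replicate 2, Mrps12 in the heme library, and Mrpl15 in the heme library and in control replicate 1. Mrps33 stands out in control replicate 1, and Mrps10 and Mrps21 in control replicate 2.

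Most members varied little across the libraries. The highest library over the lowest was 1.25 at the median member, against 1.33 at the median of all loci tested. The ratio was under 1.25 in 28 of 58 members (48.3%), against 39.2% of all loci, and over 2 in 6 of 58 (10.3%), against 18.8%. Mrpl4 was the steadiest, at 27.8 FPKM with heme, 28.1 and 27.2 under induction, and 26.8 and 26.4 in the controls. The 6 members over 2 were Mrpl10, Mrpl14, Mrpl15, Mrps10, Mrps12 and Mrps33, and they appear below. Mrpl14 was at 21.6 FPKM with heme, 42.8 and 18.6 under induction, and 19.7 and 32.3 in the controls, so induction and control overlap. The control replicates differed by a median of 0.14 on the log2 scale over the members (0.21 over all loci) and the induction replicates by 0.079 (0.10 over all loci).

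Among the members, the number of listed transcripts at a locus went with its spread. The highest-over-lowest ratio had a median of 1.15 over the 27 member loci with 1 listed transcript and of 1.29 over the 31 with more. Over all loci tested the order was the other way round, with medians of 1.36 for 3075 loci with 1 listed transcript and 1.32 for 3964 with more. Exons of 23 member loci also overlap another gene in GENCODE M21, such as Mrpl36 with Ndufs6 and Mrps6 with Slc5a3. Whether the counting used strand is not stated in those sources, so reads of such pairs may be split between them. The locus of Mrps24 also holds a transcript of Urgcp, and that of Mrpl33 one of Bre.

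Summed over all members, the heme library held 1656 FPKM, the induction libraries 1835 and 1812, and the controls 1742 and 1752. The heme library was thus at 94.8% of the control mean and the induction libraries at 104% of it, and the groups do not overlap. As a share of the FPKM of all listed transcripts, the members took 0.409% with heme, 0.455% and 0.454% under induction, and 0.437% and 0.426% in the controls. With 1 library against 2, or 2 against 2, no exact permutation test can pass a threshold of 0.05, so these sums are given as descriptions.

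The subunits did not contribute alike. The Mrpl sum was 1159 FPKM in the heme library, 1271 and 1263 under induction, and 1191 and 1199 in the controls. The Mrps sum was 497 FPKM in the heme library, 565 and 549 under induction, and 551 and 553 in the controls. With heme the small-subunit sum was at 90.1% of the control mean and the large-subunit sum at 97.0%. The median locus gave the other order, with a log2 fold change with heme of -0.089 for Mrpl and -0.057 for Mrps. Under induction the large-subunit sum was at 106% of the control mean, and the small-subunit sum was at 101%, with 1 induction library on each side of the controls.

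The ratio of the large-subunit to the small-subunit sum was 2.33 in the heme library, 2.25 and 2.30 under induction, and 2.16 and 2.17 in the controls. All 3 treated libraries lay above both controls. With Mrps18a and Mrps30 counted in the large subunit and Mrps36 left out, as their proteins are placed, the ratio was 2.96 with heme, 2.81 and 2.91 under induction, and 2.67 and 2.66 in the controls. Over loci with 1 listed transcript (17 large, 10 small) it was 1.93 with heme, 1.81 and 1.98 under induction, and 1.80 and 1.65 in the controls. The cytosolic ribosomal proteins, 51 of the large and 35 of the small subunit, gave no such order: 1.44 with heme, 1.43 and 1.43 under induction, and 1.45 and 1.43 in the controls.

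**Figure D2:**
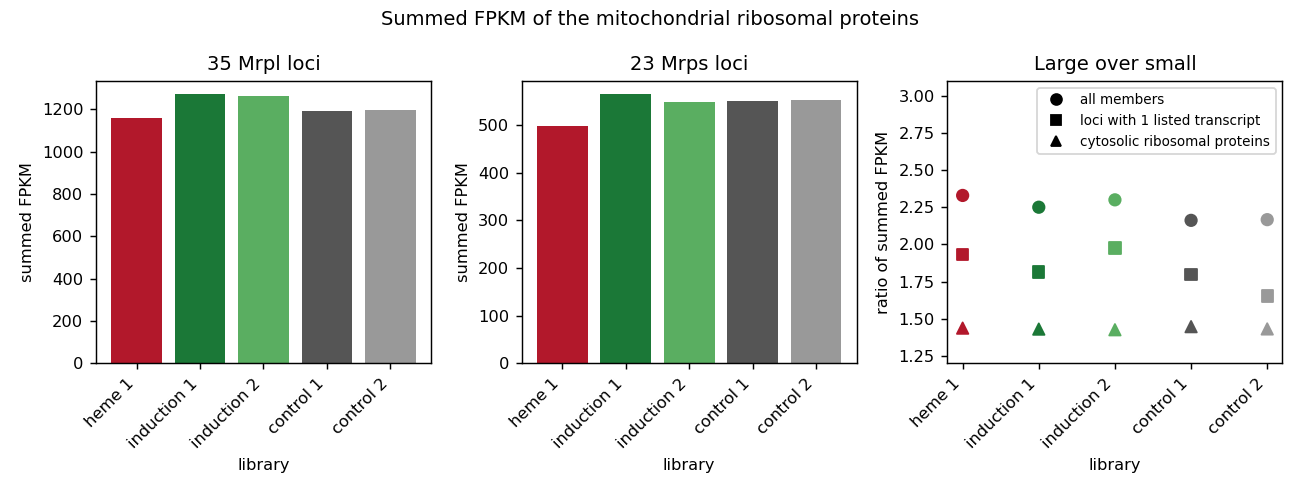
Bars give the summed FPKM of the 35 Mrpl and the 23 Mrps loci in each library (heme 1, induction 1 and 2, control 1 and 2). The right panel gives the large over the small sum as points, for all members, for loci with 1 listed transcript and for the cytosolic ribosomal proteins. The heme bar is the lowest in both subunits, and the ratio of all members is 2.33 with heme, 2.25 and 2.30 under induction, and 2.16 and 2.17 in the controls.

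Some loci contributed more than others to the differences in the sums. Heme minus the control mean was -18.3 FPKM for Mrps21, -12.5 for Mrps12, -9.49 for Mrps33 and, on the large side, -12.4 for Mrpl15. Under induction the largest positive differences from the control mean were Mrpl10 at 15.9 FPKM, Mrps24 (with its Urgcp transcript) at 8.30, Mrps10 at 8.06, Mrps18a at 7.91 and Mrpl52 at 7.54. Mrps21 differed by -15.4 FPKM. Without Mrpl10 and Mrps12 the ratio of the subunits was 2.38 with heme, 2.36 and 2.35 under induction, and 2.26 and 2.26 in the controls. Mrps21 stayed in these sums, at 44.7 FPKM in control replicate 1 and 66.2 in control replicate 2. With its FPKM taken out of the Mrps sums, the ratio of induction replicate 1 no longer lies above that of control replicate 2.

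The first comparison of the design sets heme-treated cells against control cells. No member passed an adjusted p of 0.05 in limma (two-sided, Benjamini-Hochberg over 7039 loci), where 3 of all loci did, 0.0426%. At an unadjusted p below 0.05 there were 3 members, Mrps12, Mrpl15 and Mrps33, which is 5.17% of 58 against 3.59% of all loci. The median log2 fold change of the members was -0.06, against -0.0035 for all loci tested, with 19 of 58 members above 0 (32.8%, against 49.2% of all loci) and 39 below 0 (67.2%, against 50.7%). By class the medians were -0.089 for the bacterial-counterpart and -0.072 for the mitochondria-specific proteins of the large subunit. In the small subunit they were -0.057 and -0.20, the last over 5 loci, with Mrps18b among them at -0.073.

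The heme library lay below both controls in 24 of 58 members (41.4%, against 31.1% of all loci) and above both in 9 (15.5%, against 25.5%). It was the lowest of all 5 libraries in 22 members, 17 Mrpl and 5 Mrps (37.9%, against 19.7% of all loci), and the highest in 1, Mrpl24 (1.72%, against 13.7%). Control replicate 2 was the lowest of the 5 libraries in 27.6% of members, against 32.3% of all loci, and the highest in 17.2%, against 28.2%. Differences were small: 4 of 58 members (6.9%) differed from control by over 0.5 on the log2 scale, against 12.8% of all loci.

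Mrps12, the counterpart of the S12 protein of the bacterial decoding site, had the lowest p of all members. It was listed at 14.7 FPKM in the heme library, 30.3 and 28.9 under induction, and 27.9 and 26.6 in the controls. The heme library alone was low, and the other 4 lay between 26.6 and 30.3 FPKM. The log2 fold change on the log2(FPKM + 1) scale was -0.85 ± 0.12 (SE), with an adjusted p of 0.56 in limma. The locus has 1 listed transcript (chromosome 7, 28739642 to 28741820, minus strand), the same in all libraries. GENCODE M21 has 4 for this gene, and whether reads went to an unlisted one in the heme library was not tested.

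Mrpl15, a large-subunit protein with a bacterial counterpart, was listed at 6.92 FPKM with heme, 11.0 and 13.9 under induction, and 22.8 and 15.9 in the controls. Its log2 fold change was -1.34 ± 0.28 for heme and -0.58 ± 0.23 for induction. Both treatments lay below both controls. Unnamed transcripts carry this order: MSTRG.1.4 was listed at 0 with heme and under induction and at 17.0 FPKM in control replicate 1, and MSTRG.1.3 at 10.0 FPKM in induction replicate 2, 12.3 in control replicate 2 and 0 elsewhere. Without control replicate 1 the induction difference was -0.33. Over rows that carry the name Mrpl15 the log2 fold change was 0.50 for heme and 0.46 for induction.

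Mrps33, a mitochondria-specific small-subunit protein, was listed at 9.43 FPKM with heme, 11.7 and 14.5 under induction, and 23.1 and 14.8 in the controls. The log2 fold change was -0.90 ± 0.31 with heme and -0.48 ± 0.25 under induction. Control replicate 1 was the high library, and of its level 12.5 FPKM lies on the unnamed transcript MSTRG.16792.3, listed at 0.051 FPKM or less in the other libraries. Without control replicate 1 the differences were -0.60 with heme and -0.17 under induction, and without control replicate 2 the induction difference was -0.78. The named transcript was at 9.43 FPKM with heme, 11.6 and 14.5 under induction, and 10.6 and 14.8 in the controls.

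Mrps21, a small-subunit protein with a bacterial counterpart, was listed at 37.2 FPKM with heme, 43.3 and 36.9 under induction, and 44.7 and 66.2 in the controls. Its log2 fold change was -0.54 ± 0.26 with heme and -0.44 ± 0.21 under induction. Control replicate 2 alone was high, and control replicate 1 lay just above induction replicate 1. Without control replicate 1 the differences were -0.81 with heme and -0.71 under induction, and without control replicate 2 they were -0.26 and -0.16. Mrpl51 and Mrps26, both mitochondria-specific, were also lowest in the heme library, at 8.77 and 9.82 FPKM, with log2 fold changes of -0.44 ± 0.18 and -0.38 ± 0.26. For both, the only listed transcript is not annotated as protein-coding. The Mrps26 difference was -0.61 without control replicate 1 and -0.14 without control replicate 2.

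Above both controls in the heme library, the largest differences were Mrpl24 at 0.30 ± 0.20, Mrpl27 at 0.29 ± 0.16, Mrps18a at 0.25 ± 0.11 and Mrpl36 at 0.23 ± 0.16 on the log2 scale, followed by Mrps23 at 0.10 ± 0.15 and Mrpl37 at 0.084 ± 0.13. The adjusted p was 0.998 in limma for each of these 6. Mrpl24, the counterpart of bacterial L24, was listed at 11.8 FPKM with heme, 11.1 and 9.06 under induction, and 9.78 and 9.06 in the controls. Its heme library was the highest, but an induction library stood close to it. The Mrpl36 difference with heme was 0.37 without control replicate 1 and 0.087 without control replicate 2.

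The second comparison sets neural induction against control. No member passed an adjusted p of 0.05 in limma, where 1 of all loci did, 0.0142%, and the lowest adjusted p among the members was 0.935. At an unadjusted p below 0.05 there was 1 member, Mrps18a (1.72%, against 3.05% of all loci). The median log2 fold change of the members was 0.060, against 0.019 for all loci, with 41 of 58 above 0 (70.7%, against 54.7% of all loci) and 17 below 0 (29.3%, against 45.3%). The medians by class were 0.082 and 0.040 for bacterial-counterpart and mitochondria-specific large-subunit proteins, and 0.075 and -0.037 for those of the small subunit.

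Both induction libraries lay above both controls in 22 of 58 members, 14 Mrpl and 8 Mrps (37.9%, against 18.2% of all loci). They lay below both in 4, which were Mrpl15, Mrps5, Mrps21 and Mrps33 (6.9%, against 13.0% of all loci). Sizes were again small: 4 members (6.9%) passed 0.5 on the log2 scale, against 10.4% of all loci. Heme and induction are set against the same controls, so a level that is high or low in the controls moves both comparisons.

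**Figure D3:**
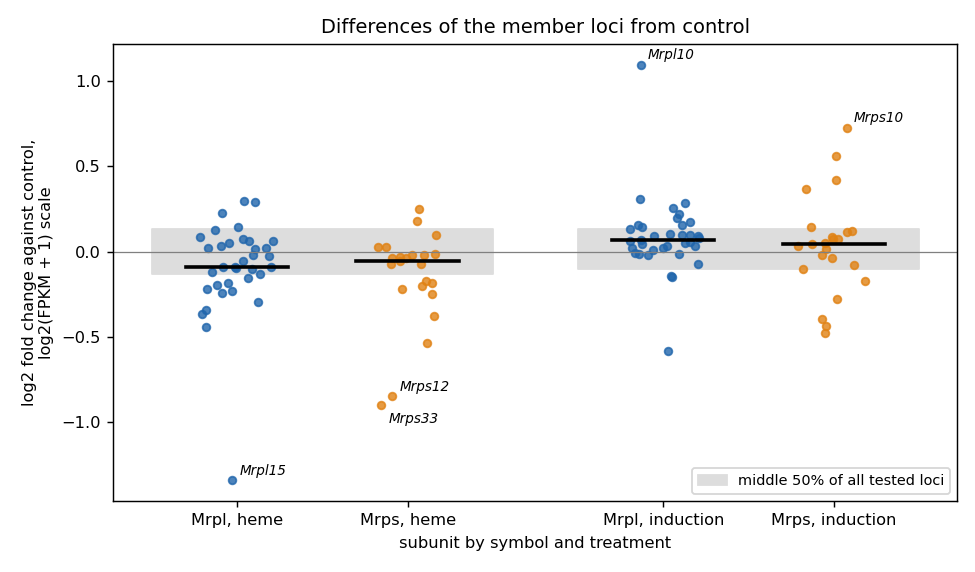
Each point is 1 member locus, with Mrpl in blue and Mrps in orange. The y axis is the log2 fold change against control on the log2(FPKM + 1) scale, for heme on the left and induction on the right. Black bars are medians and the grey band holds the middle 50% of all 7039 loci tested. Most points lie in or near the band, and the named loci lie beyond 0.7 in size.

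Mrps18a had the lowest p of all members under induction. It was listed at 31.4 FPKM with heme, 32.8 and 35.4 under induction, and 26.3 and 26.1 in the controls. All 3 treated libraries lay above both controls, which stood together. The log2 fold change was 0.37 ± 0.092 (SE) under induction, with an adjusted p of 0.935 in limma. The transcripts differ in this: the main one, ENSMUST00000024763, was at 21.9 FPKM with heme, 32.1 and 24.9 under induction, and 25.4 and 25.5 in the controls. A transcript annotated as non-coding, ENSMUST00000134237, was at 9.42 FPKM with heme, 0.615 and 10.5 under induction, and 0.834 and 0.610 in the controls.

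Mrpl10, whose product anchors the L7/L12 stalk to the large subunit, had the largest difference of any member under induction. It was listed at 8.35 FPKM with heme, 11.99 and 39.3 under induction, and 10.5 and 8.96 in the controls. Induction replicate 2 alone was high, and replicate 1 lay just above control replicate 1. The log2 fold change was 1.10 ± 0.56, with an adjusted p of 0.935 in limma. It was 1.91 without induction replicate 1 and 0.28 without replicate 2. The locus has 1 listed transcript (chromosome 11, 97041560 to 97049213, plus strand), of 2 in GENCODE M21. Exons of the gene overlap Gm11574 on the other strand.

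Mrps10, the counterpart of bacterial S10, was listed at 13.7 FPKM with heme, 20.5 and 20.5 under induction, and 15.9 and 8.96 in the controls. Its log2 fold change was 0.73 ± 0.28, and 1.11 without control replicate 1 and 0.35 without control replicate 2. The induction replicates stood together above all others, and control replicate 2 was the lowest library by 0.56 on the log2 scale. Mrps24, the counterpart of bacterial S3, was listed at 22.9 FPKM with heme, 35.6 and 25.9 under induction, and 21.1 and 23.8 in the controls. The log2 fold change was 0.42 ± 0.18 for a locus that includes Urgcp, and 0.20 without induction replicate 1 and 0.65 without replicate 2.

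Mrpl36 and Mrpl27, both with bacterial counterparts, lay above the controls under both treatments. Mrpl36, a small zinc-binding protein in bacteria, was at 31.4 FPKM with heme, 32.3 and 34.2 under induction, and 29.5 and 24.0 in the controls, with an induction fold change of 0.31 ± 0.13 on the log2 scale. Mrpl27 was at 29.7 FPKM with heme, 26.8 and 32.5 under induction, and 23.3 and 24.8 in the controls, with an induction fold change of 0.29 ± 0.13. Mrps5, the counterpart of bacterial S5, was the other way round, at 19.4 FPKM with heme, 12.8 and 16.8 under induction, and 18.9 and 20.2 in the controls (-0.40 ± 0.16). The Mrpl36 difference was 0.17 without control replicate 2, that of Mrpl27 0.15 without induction replicate 2, and that of Mrps5 -0.21 without induction replicate 1. For these 3, the adjusted p under induction was 0.935 in limma.

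**Figure D4:**
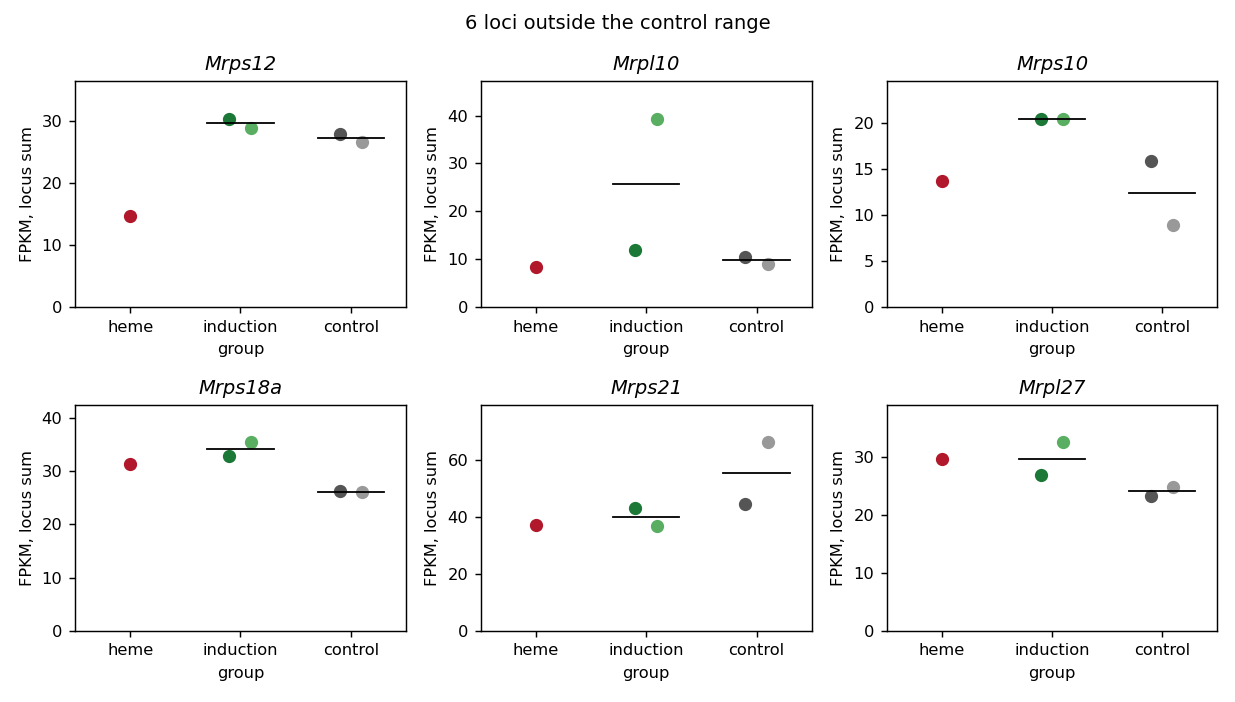
Points give the locus sum in FPKM of 6 loci in each library, grouped as heme (1 library), induction (2) and control (2). Lines are the means of groups with 2 libraries. Mrps12 is low in the heme library only, Mrpl10 is high in induction replicate 2 only, Mrps10 is high in both induction libraries, and Mrps21 is high in control replicate 2.

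Control replicate 2 differed from the other 4 libraries in several members. Its gap to the nearest of them was 0.56 on the log2 scale for Mrps10 (lower), 0.56 for Mrps21 (higher), 0.45 for Mrps18c (higher), 0.30 for Mrpl1 (higher), 0.28 for Mrpl36 (lower) and 0.19 for Mrps16 (lower). Without control replicate 2, the members below control in the heme library numbered 37 of 58, against 55.3% of all loci, and those above control in both induction libraries 35 of 58, against 36.5%. Without control replicate 1 the counts were 36 of 58 and 32 of 58, against 50.2% and 42.7% of all loci.

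At 31 member loci with more than 1 listed transcript, the transcript with the highest FPKM was the same in all 5 libraries in 13 (41.9%, against 39.1% of 3964 such loci in the table). The heme library had another leading transcript than both controls in 4, Mrpl1, Mrpl24, Mrpl55 and Mrps2 (12.9%, against 13.9%). The induction libraries shared a leading transcript other than that of both controls in 0 of 31, against 4.52% of all such loci. Control replicate 1 alone led with another transcript in 3, Mrpl22, Mrps33 and Mrps34 (9.68%, against 5.50%). Of the 111 transcripts, those at 1 FPKM or more in 1 library only numbered 0 in the heme library (0%, against 1.69% of all 15113 transcripts), 1 and 4 in induction replicates 1 and 2 (0.901% and 3.60%, against 1.99% and 1.85%), and 5 and 2 in control replicates 1 and 2 (4.50% and 1.80%, against 1.74% and 1.84%).

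Mrps2, the counterpart of bacterial S2, shows the pattern at a locus whose sum moved little. The sum was 19.3 FPKM with heme, 21.3 and 21.6 under induction, and 24.9 and 20.6 in the controls. Transcript ENSMUST00000146332 was at 11.6 FPKM with heme, 11.0 and 6.80 under induction, and 0.014 and 7.66 in the controls. The other, ENSMUST00000038600, was at 7.71 FPKM with heme, 10.2 and 14.8 under induction, and 24.9 and 12.9 in the controls. Control replicate 1 was the library that stood apart in both.

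With the p-values of the authors' deposited tables adjusted here by Benjamini-Hochberg, 7 member transcripts for heme and 7 for induction had an adjusted p below 0.05. For transcripts above 5 FPKM in both, the tables' fold changes equal the ratio of replicate 1 of the treated group to control replicate 1 within 0.1 on the log2 scale, after centring on the median, in 100% of cases. For heme, 2 were higher and 5 lower, against 3.49% higher and 3.75% lower of all 15113 transcripts. For induction, 3 were higher and 4 lower, against 3.55% and 3.65%. All lie at the 5 loci Mrpl15, Mrpl22, Mrpl40, Mrps2 and Mrps33. In the authors' deposited tables Mrpl22 transcript ENSMUST00000020820 has a log2 fold change of 2.17 for heme and 2.30 for induction. Its FPKM was 29.6 with heme, 32.4 and 29.4 under induction, and 6.39 and 29.3 in the controls, so control replicate 1 alone was low. Mrpl40 transcript MSTRG.7491.2, with a log2 fold change of -7.76 in both of the authors' deposited tables, was listed at 0 with heme and under induction and at 26.8 and 0 FPKM in the controls.

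In all 14 of these 14 calls, control replicate 2 lay nearer to replicate 1 of the treated group than to control replicate 1. The same held for 53.9% of all 1094 transcripts called for heme and 52.3% of all 1088 called for induction in the authors' deposited tables. The 14 calls are not independent of each other. Most are of transcripts called in both comparisons against the same control replicate 1, and some are transcripts of the same locus.

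**Figure D5:**
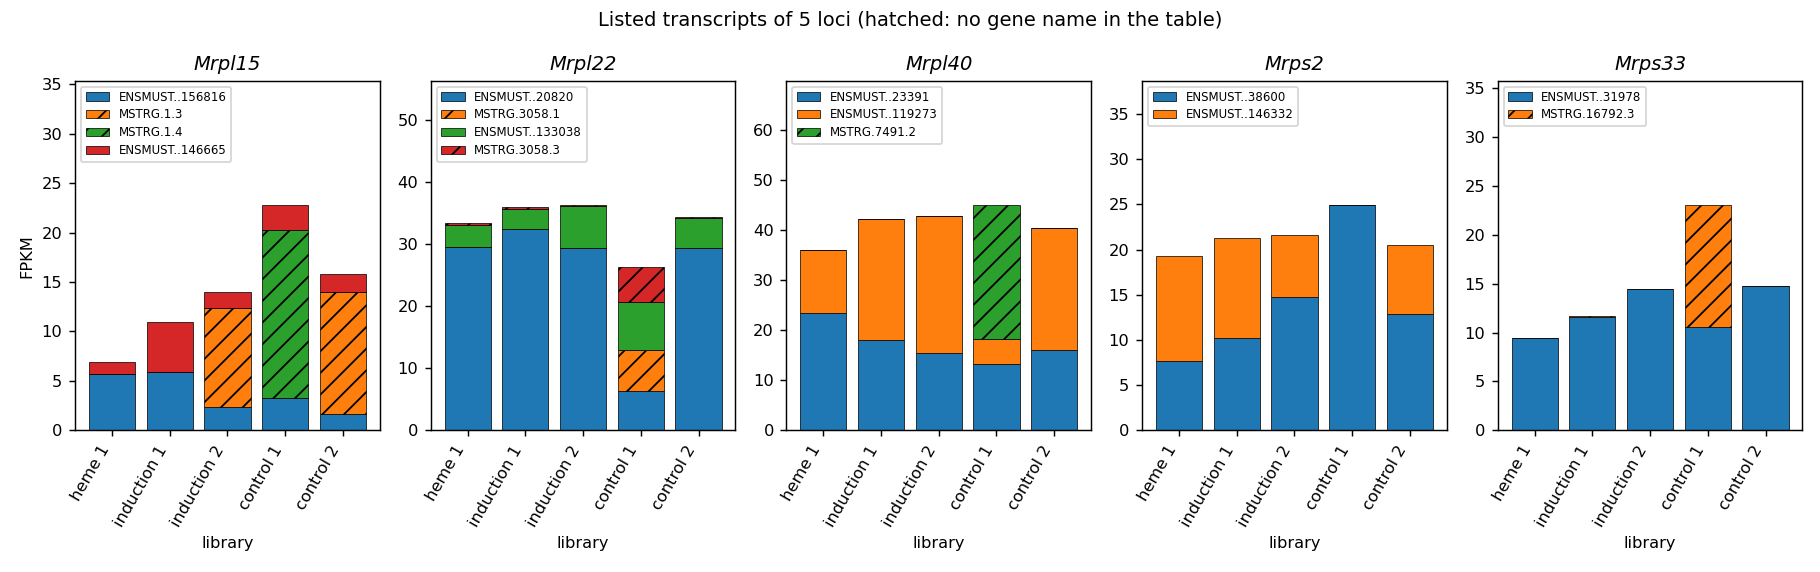
Stacked bars give FPKM per listed transcript in each library (heme 1, induction 1 and 2, control 1 and 2) at the 5 loci with calls in the authors' deposited tables. Identifiers are shortened, and hatched parts have no gene name in the table. In each panel control replicate 1 has a makeup of transcripts that no other library has. Summed heights run from 19.3 to 24.9 FPKM for Mrps2 and from 6.92 to 22.8 FPKM for Mrpl15.

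Promoters were read to see what the members share in sequence. RefSeq promoter windows on GRCm38.p6, 250 bases before to 50 after a gene's start, were found for 52 of 58 members, and Mrpl4, Mrpl13, Mrpl15, Mrpl54, Mrps28 and Mrps34 were without one. Motifs were searched on both strands. The ETS-family core CCGGAAG, which GABP/NRF2 binds in many nuclear genes of mitochondria, was present in 19 of 52 windows (36.5%), against 23.7% of 4608 tested genes and 9.93% of all 27025 genes with a window. The YY1 letters AAGATGGC were present in 8 of 52 (15.4%), against 6.03% of tested genes. The NRF1 letters GCGCATGC were present in 4 (7.69%, against 7.01%) and the TATA letters TATAAA in 4 (7.69%, against 8.40%). These are matches of letters and not sites of binding.

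The start of another protein-coding gene on the opposite strand fell within the window in 16 of 52 members (30.8%), against 12.4% of tested genes and 7.94% of all genes. Among these pairs are Mrps12 with Sars2, the mitochondrial seryl-tRNA synthetase, whose GENCODE start lies 181 bases before that of Mrps12, Mrpl43 with Twnk, the mitochondrial DNA helicase, 116 bases apart, and Mrpl10 with Lrrc46, 175 bases apart.

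The windows of 3 members are shown, chosen by rank among the members. Mrps12 has the lowest p with heme, Mrps18a the lowest p under induction, and Mrpl10 the largest difference under induction. None of the 3 passed the threshold, and a link between the letters and the levels was not tested. Capitals mark the ETS letters (CCGGAAG or CTTCCGG), the YY1 letters (AAGATGGC or GCCATCTT) and the NRF1 letters (GCGCATGC or GCATGCGC). Sequences run from 5′ to 3′ along the gene. Mrps12 lies at chr7:28741772-28742071, minus strand. Mrps18a lies at chr17:46110754-46111053, plus strand. Mrpl10 lies at chr11:97041332-97041631, plus strand.
Mrps12: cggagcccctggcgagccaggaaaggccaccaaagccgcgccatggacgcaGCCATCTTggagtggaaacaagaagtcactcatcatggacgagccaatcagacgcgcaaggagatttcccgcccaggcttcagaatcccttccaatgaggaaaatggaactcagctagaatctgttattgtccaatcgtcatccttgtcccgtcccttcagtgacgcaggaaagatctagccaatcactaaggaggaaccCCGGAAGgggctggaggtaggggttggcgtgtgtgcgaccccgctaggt
Mrps18a: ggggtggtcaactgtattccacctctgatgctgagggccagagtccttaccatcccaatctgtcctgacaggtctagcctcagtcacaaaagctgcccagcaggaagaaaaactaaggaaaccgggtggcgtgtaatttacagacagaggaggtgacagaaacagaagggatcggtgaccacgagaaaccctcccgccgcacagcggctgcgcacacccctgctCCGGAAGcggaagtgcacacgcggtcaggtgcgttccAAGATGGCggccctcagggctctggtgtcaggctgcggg
Mrpl10: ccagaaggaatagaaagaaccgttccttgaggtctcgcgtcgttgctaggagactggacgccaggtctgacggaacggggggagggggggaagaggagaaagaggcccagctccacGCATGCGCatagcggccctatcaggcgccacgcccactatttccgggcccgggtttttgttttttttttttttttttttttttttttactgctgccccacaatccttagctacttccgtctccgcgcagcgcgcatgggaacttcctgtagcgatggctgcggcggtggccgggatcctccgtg
In Mrps12 the ETS letters begin at base 2 of the transcript and the YY1 letters 199 bases before the start, on the side of Sars2. In Mrps18a the ETS letters begin 26 bases before the start and the YY1 letters at base 12 after it. In Mrpl10 only the NRF1 letters are found, beginning 134 bases before the start.

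The partners of the mitoribosome in translation were read from lists of related genes. Of 19 translation and mitochondrial transcription factors 11 were tested, and 0 passed an adjusted p of 0.05 in either comparison, with medians of -0.076 on the log2 scale for heme and -0.040 for induction. Of 29 assembly and rRNA modification factors 9 were tested, with 0 called and medians of -0.10 and 0.013. Tufm, the elongation factor that brings aminoacyl-tRNA to the ribosome, was at 31.4 FPKM with heme, 34.9 and 33.7 under induction, and 30.1 and 33.4 in the controls. Dhx30, an RNA helicase needed for mitoribosome assembly, was at 8.26 FPKM with heme, 9.46 and 9.23 under induction, and 14.4 and 12.05 in the controls. All 3 treated libraries of Dhx30 lay below both controls, with log2 fold changes of -0.62 for heme and -0.46 for induction and an adjusted p of 0.998 and 0.935 in limma.

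Mitoribosome subunits that do not bear an Mrp name were tested for 5 of 8 genes, with 0 called and medians of -0.043 and 0.15. Ict1, a peptidyl-tRNA hydrolase built into the large subunit, was at 1.21 FPKM with heme, 5.70 and 14.8 under induction, and 1.01 and 1.54 in the controls. Both induction libraries were above all others but differed from each other, and the log2 fold change of 2.18 had an adjusted p of 0.935 in limma. Aurkaip1, a mitochondria-specific small-subunit protein, was at 25.5 FPKM with heme, 19.3 and 15.5 under induction, and 34.6 and 28.1 in the controls (-0.82 under induction, adjusted p = 0.935 in limma).

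Mitochondrial aminoacyl-tRNA synthetases, which load the tRNAs, were tested for 8 of 22 genes, with 0 called and medians of 0.051 and 0.027. Lars2 lay far from these medians, at -2.14 for heme and -0.60 for induction. It was at 6.43 FPKM with heme, 7.25 and 55.4 under induction, and 128 and 7.33 in the controls, so replicates of a group differed widely. The mRNAs of mitochondrial DNA, which the mitoribosome translates, stood in 10 tested loci. Their sum was 35149 FPKM with heme, 29292 and 34140 under induction, and 28261 and 36378 in the controls. All other libraries lie between the controls, and 0 of the 10 loci was called. The cytosolic ribosomal proteins had medians of -0.022 (large) and -0.032 (small) for heme and 0.021 and 0.032 for induction, beside -0.089 and -0.057, and 0.069 and 0.043, for the Mrpl and Mrps loci.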

How the data were processed

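The submitters' processing notes name HISAT2, StringTie and edgeR and the build GRCm38 (mm10), without versions. Per the file headers, the authors deposited a table of FPKM and of coverage (mean per base) by transcript and library. They also deposited 2 tables of comparisons: log2 columns (fold change and abundance), a likelihood ratio score, and an unadjusted p-value, per the file headers. The rule that chose the 15113 listed transcripts is not given in the sources used here.

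FPKM were summed over the listed transcripts of a StringTie locus. Tests used limma 3.58.1 in R 4.3.3 (eBayes with trend) on log2(FPKM + 1), which understates the change of low loci, over loci with at least 1 FPKM in at least 2 of the 5 libraries. The fit had 2 residual degrees of freedom, and takes the single heme library to vary as the other groups do. All p-values are two-sided, Benjamini-Hochberg adjusted over the loci tested, and read at a threshold of 0.05, and the fit was tested on simulated data. Depth was read from coverage over FPKM. Named loci are up to 6 per direction with the largest non-overlapping differences and a mean of at least 5 FPKM, and loci set by level, by control replicate 2 and by leading transcript. Mrpl14, Mrpl4, Dhx30, Ict1, Lars2, the loci with calls in the authors' tables and the promoter pairs were named after their values were seen. The members, lists and rules were chosen with earlier results of these data known. Alternatives covered the pseudocount, the filter, scaling, the second heme column, trend, transcripts, symbol rows, a replicate block and leaving out a library. Identifiers of all 90 named member transcripts were found in GENCODE M21 with the same symbol.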

Additional observations from a re-analysis of the deposited data

How the results depend on the processing

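None of the 22 named differences passed the threshold, so that most alternatives leave them short of it says little about their stability. Of 286 alternatives to them, 5 reversed the direction: Mrpl15 over rows with its name (0.50 for heme, 0.46 for induction), Mrps33 under induction (0.045 over rows with its name and for its leading transcript), and the leading transcript of Mrps18a with heme (-0.21). With all 6 columns, which count the heme measurements as 2 replicates, 207 loci were called for heme, 51 for induction, and 1 member in each (Mrpl15 at -1.13, Mrpl10 at 1.10), and the member median for heme was 0.17. For heme, 10 transcripts were called one by one and 5 loci over rows with a symbol. For induction, 27 loci were called without the trend and 0 with a pseudocount of 0.1, without a filter or over rows with a symbol.

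Same-numbered deviations of induction and control correlated at -0.051 over 7039 loci. With 2 pairs, this cannot tell whether same-numbered samples were handled together. The replicate block called 4 loci for heme and 2 for induction, no member, and gave member medians of -0.062 and 0.060.

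Leaving out 1 library at a time called 0 loci in either comparison (the fit then has 1 residual degree of freedom). The member median then ran from -0.076 to -0.040 for heme and from 0.022 to 0.085 for induction, and the count of members below control with heme from 36 to 37 and above control under induction from 25 to 35. Over all loci, 50.2% and 55.3% were then below control with heme. Above control under induction were 32.5% and 32.1% without induction replicate 1 or 2 (43.1% and 60.3% of members), and 42.7% and 36.5% without control replicate 1 or 2 (55.2% and 60.3% of members). Leaving out the heme library leaves no heme comparison. The heme median was -0.042 over rows with a symbol and -0.089 over loci with 1 listed transcript. The subunit ratio exceeded the control mean by 0.17 with heme and 0.11 under induction. These differences were 0.30 and 0.20 with the structural assignment, 0.20 and 0.17 over loci with 1 listed transcript, and 0.13 for heme without Mrpl10 and Mrps12. The leave-one-out range of the ratio difference was 0.163 to 0.168 for heme and 0.086 to 0.136 for induction. For heme only a control can be left out, so its narrow range reflects how close the control ratios were (2.16 and 2.17). It says nothing about how a further heme library would vary. Where no value or construction shows it, the cause was not tested. The 5 libraries, with 1 for heme, limit the precision of every value.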
